A study of Mus musculus with 4 samples.

Results

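The mTOR complexes and their TSC-Rheb switch are described here through the N6-methyladenosine (m6A) peaks found on their RNAs in mouse natural killer (NK) cells. The genes were Mtor, Rptor, Rictor, Deptor, Mlst8, Akt1s1, Tsc1, Tsc2, Rheb and Eif4ebp1, and a peak was counted for a gene when the deposited list named that gene's Ensembl identifier. By this rule 17 of the 20727 distinct peaks belonged to the 10 genes. At least 1 peak was found in 8 of the 10 genes, while Mlst8 and Tsc2 had 0. Splenic NK cells of C57BL/6 mice without a gene deletion were used, and per the study's methods these cells had been expanded in the animals by an IL-15 expression plasmid (pLIVE-IL-15) and sorted. There were 2 m6A immunoprecipitates and 2 input libraries, in which poly(A) RNA was fragmented and sequenced with or without pull-down by an m6A antibody. The list gives 1 fold enrichment (immunoprecipitate over input) and 1 peak-calling p per peak for all 4 libraries together. No value per library, no error between replicates and no depth could therefore be given, and no test was run on these peaks.

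mTOR is a kinase that works in a pair of complexes. mTORC1, built on Raptor (Rptor), drives protein synthesis and growth when amino acids and growth signals are present, and mTORC2, built on Rictor, phosphorylates AKT. Rheb, a small GTPase, switches mTORC1 on, and the TSC1-TSC2 complex holds Rheb off. In NK cells the pathway is known to carry the IL-15 signal to growth and metabolism. The study asked which RNAs carry m6A in NK cells and looked at signalling through AKT and mTOR in cells without the m6A writer METTL3. m6A is placed on A in a short consensus named DRACH (D stands for any base but C, R for a purine and H for any base but G), and often in the form GGAC followed by any base but G.

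The mTORC1 and mTORC2 kinase and its mTORC2 scaffold carried peaks of low fold enrichment at the far end of the mRNA. Mtor had 1 peak with a fold enrichment of 1.79, and Rictor had 1 with 1.95. The peaks with the highest fold enrichments were on the inhibitor Deptor (199) and on Tsc1 (22.8). A peak with a fold enrichment of 5 or more, the limit behind the study's own gene selection for pathways, is called strong here. Strong peaks were found in 4 of the 8 genes with a peak, namely Deptor, Tsc1, Rheb and Rptor, against 49.6% of all genes with a peak and 43.4% of the protein-coding ones. That of Rheb had a log10 p of only -1.69. With a peak-calling p under 0.001 as well, the count was 3 of 8, without Rheb, against 25.7% of the protein-coding ones. Among all annotated protein-coding genes, expressed in these cells or not, 46.3% had a peak, against 8 of these 10. The bearing of expression on this difference was not tested. In Rptor and Rheb the strong peak touched no exon of a protein-coding isoform, which left 2 of 8 genes with a strong peak on such an exon, against 37.3% of protein-coding genes with a peak.

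The sequences below show a consensus motif in peaks that the results turn on. Each is 25 bases of GRCm38, 5′ to 3′ on the strand of the gene, with capitals for the GGAC form nearest the middle of the longest exonic stretch of the peak, or for the nearest other DRACH match where the peak had no GGAC form. Only the strand of the gene was searched, and GGAC matches are also DRACH matches.
Mtor, chr4:148557501-148557525, plus strand: tttgcagcagGGACTcagaacataa
Rictor, chr15:6800152-6800176, plus strand: tgtataactgTAACAtagaaagaaa
Akt1s1, chr7:44855397-44855421, plus strand: aagttttacctcTGACTagtgagtt
Eif4ebp1 peak at the start codon, chr8:27260491-27260515, plus strand: tcccgcccggGGACTacagcaccac
Eif4ebp1 peak at the stop codon, chr8:27275362-27275386, plus strand: tccagcgagtGGACTcagaggagtc
Rheb peak at the stop codon, chr5:24803628-24803652, minus strand: cagagcctgcGGACActggggatat
Deptor peak of fold 199, chr15:55255645-55255669, plus strand: gcttgttctaGGACAcccagggcta
Deptor peak nearest the transcript end, chr15:55258760-55258784, plus strand: tgctttggaaGGACAgacaccaggt
Tsc1 peak of fold 22.8, chr2:28665286-28665310, plus strand: aagaaatcctTGACAcctacacttt
Rptor, chr11:119867206-119867230, plus strand: agacttgttgGAACAgtggagagtt
A match is a description of these letters and does not locate a methylated base. The marked matches of Tsc1 and Rptor lie in no exon of a protein-coding isoform. That of Akt1s1 lies outside the longest coding transcript, in exons of other protein-coding isoforms. Over the 16 peaks that touched an exon of their gene there were 107 DRACH matches, or 19.9 per kb of exonic sequence, against 20.1 per kb in all peaks of the list. The GGAC form occurred 3.54 times per kb, against 3.21. Each of the 16 peaks held a DRACH match, against 92.6% of peaks in the list, and 9 held the GGAC form, against 55.5%. The motif content was thus close to that of the list as a whole.

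Mtor (ENSMUSG00000028991, chromosome 4, plus strand), the kinase of both complexes, had its peak at 148557413 to 148557593 in exon 58 of 58. It lay 553 to 733 nt past the stop codon in a 3′ UTR of 823 nt, and ended 90 nt before the transcript end. Its log10 p was -4.65, against a median of -4.1 in the list. The 181 nt of the peak held 3 DRACH matches, of which 2 were GGAC forms, and the GGACT shown above lies with its A 653 nt past the stop codon. Among 1633 peaks of the list with an exonic length within 10% of this, 43.7% held a GGAC form. The coding sequence of 7650 nt carried no peak.

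Rictor (ENSMUSG00000050310, chromosome 15, plus strand), the mTORC2 scaffold, resembled Mtor in the place of its peak. The peak at 6800099 to 6800248 lay in the last of 38 exons, 3863 to 4012 nt past the stop codon and 153 nt before the transcript end. Its log10 p of -2.56 was the weakest of the 4 genes whose peaks all stayed under a fold of 5. It held 4 DRACH matches and 0 GGAC forms, in sequence with a GC content of 26.7%, lower than in all but 1.90% of peaks in the list.

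**Figure D1:**
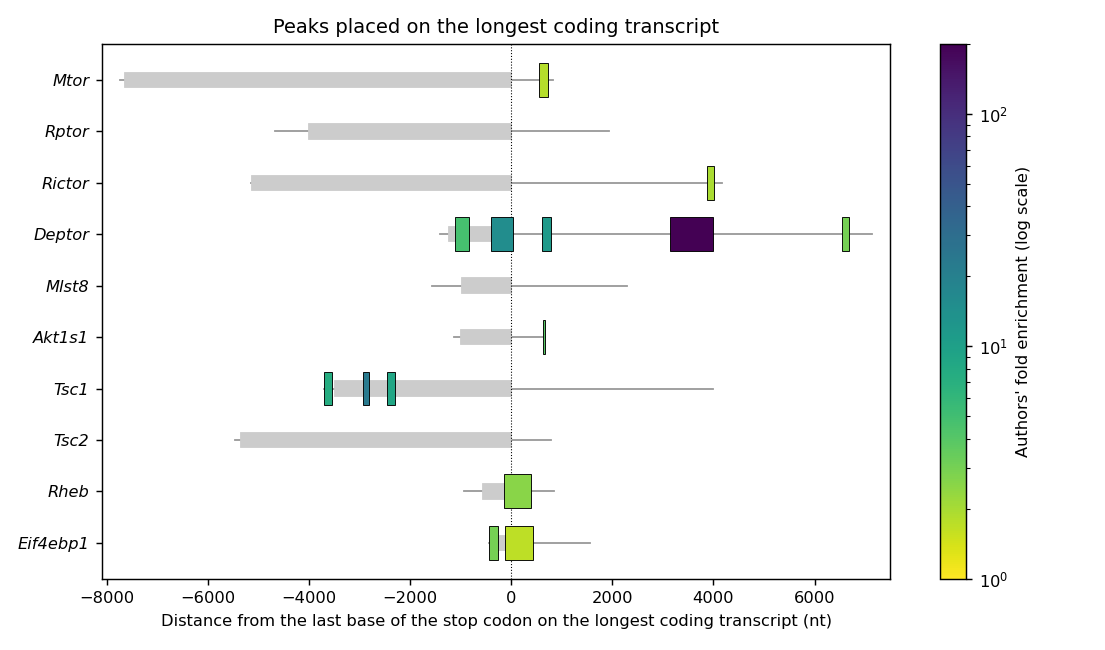
Peaks of the mTOR and TSC genes on the longest coding transcript of each gene, in nt from the last base of the stop codon. Grey lines are transcripts, grey boxes coding sequences, and coloured boxes the 14 placed peaks by fold enrichment on a log scale. Deptor holds 5 of the boxes, those of Tsc1 lie in the 5′ part, and Mtor, Rictor and Akt1s1 each have 1 near the transcript end.

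Rptor (ENSMUSG00000025583, chromosome 11, plus strand), the mTORC1 scaffold, had 1 peak at 119865717 to 119867300. Its fold enrichment was 7.16 and its log10 p -9.34. The span lay wholly within intron 21 of the longest coding transcript. Of its 1584 nt, 241 were exonic, all in a pair of retained-intron isoforms, and 0 nt belonged to a protein-coding isoform. The 34 exons of the longest coding transcript of Rptor, and its 3′ UTR of 1925 nt, thus carried no peak in this list. A position outside every exon of a protein-coding isoform was found for 9.85% of all peaks of protein-coding genes and for 17.7% of the strong ones.

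The inhibitors of mTOR differed from each other. Akt1s1 (ENSMUSG00000011096, chromosome 7, plus strand) encodes PRAS40, which binds and restrains mTORC1. Its peak at 44855361 to 44855421 spanned 61 nt and ended on the last base of the gene. The fold enrichment was 3.93 and the log10 p -5.28. It held 1 DRACH match, TGACT, and 0 GGAC forms, while 18.3% of 2023 peaks of similar exonic length held the latter. Together with Mtor and Rictor this made 3 of 8 peaks centred in a 3′ UTR that ended within 200 nt of the transcript end, against 52.7% of such peaks in the list.

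Deptor (ENSMUSG00000022419, chromosome 15, plus strand), a DEP-domain protein that binds mTOR and inhibits both complexes, had 6 peaks, a number reached by 0.963% of genes with a peak. Its strongest, at 55255284 to 55256123, covered 840 nt of exon 9, from 3149 to 3988 nt past the stop codon, in a 3′ UTR of 7136 nt that only the longest isoform carries to this point. The fold enrichment of 199 ranked 118 and the log10 p of -89.1 ranked 609 among the 20727 peaks. No other of the 17 peaks came near it in fold enrichment, the next being 22.8. The peak held 15 DRACH matches and 2 GGAC forms, against medians of 16 and 3 in 423 peaks of similar exonic length. In the RefSeq genome 61.2% of its bases are written in lower case, the mark for repeated sequence, a share above that of 95.6% of the peaks with exonic sequence. A share of at least 60%, a limit just below the value of this peak, was found in 4.61% of these. The part of repeated sequence in the fold enrichment was not tested.

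The remaining Deptor peaks were weaker. A peak of 181 nt in exon 9 (55252736 to 55252916), 601 to 781 nt past the stop codon, was enriched 11.4-fold with a log10 p of -2.09. A peak from 55212235 to 55252167 (fold enrichment 15.2, log10 p -2.91) spanned 39933 nt of the genome, of which 631 nt were exonic. On the longest coding transcript it covered exons 6 to 9, that is codons 278 to 409 and the stop codon, the end of the protein that holds the PDZ domain. A peak from 55133463 to 55151870 (4.74, log10 p -1.38) spanned exons 2 and 3 and codons 41 to 128, although the list labels it 5′ UTR. In another protein-coding isoform exon 1 falls in the same span. The peak at 55258671 to 55258821 (3.03, log10 p -3.31) lay 450 nt before the transcript end and was, with that of fold 199, the only Deptor peak with a p under 0.001. The peak at 55112665 to 55112873 (3.79, log10 p -1.64) overlapped 0 nt of any Deptor exon. All of its 209 nt lay in an exon of Gm9920, a processed transcript on the opposite strand, and the list itself labels it with that gene's exon. The list gives no strand, so reads of Deptor and Gm9920 cannot be told apart there.

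**Figure D2:**
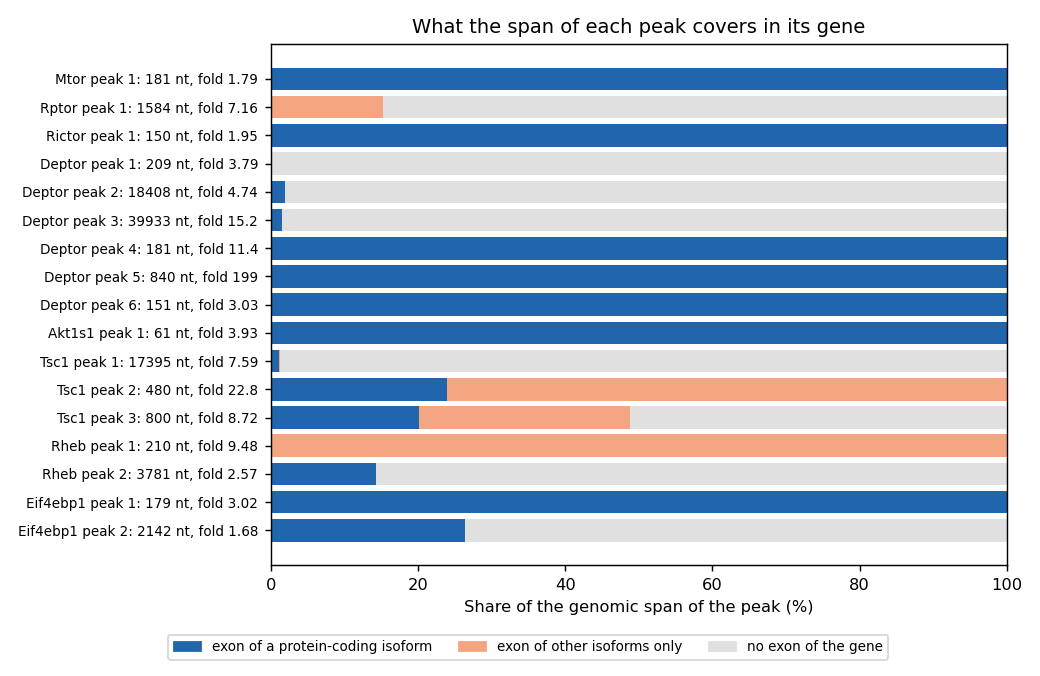
Share of the genomic span of each peak that lies in an exon of a protein-coding isoform (blue), in exons of other isoforms only (orange) or in no exon of the assigned gene (grey), in %, with peaks numbered 5′ to 3′ in each gene. The peaks of Mtor, Rictor and Akt1s1 are all blue, those of Rptor and the 5′ peak of Rheb hold no blue, and the 3 spans of at least 10000 nt in Deptor and Tsc1 (7.97% of the list has such a span) are nearly all grey.

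Tsc1 (ENSMUSG00000026812, chromosome 2, plus strand) encodes hamartin, which stabilises the TSC complex. It had 3 peaks, and all 3 were strong and lay in the 5′ part of the spliced transcript. The 3′ UTR of 3994 nt carried none. The peak with the highest fold enrichment, 22.8 with a log10 p of -16.2, covered 480 nt at 28665048 to 28665527. Of these, 115 nt were exon 7 of the longest coding transcript (codons 183 to 221) and 365 nt were exonic only in isoforms that are not protein-coding, where the adjoining intron is retained. It held 7 DRACH matches and 0 GGAC forms, although 77.9% of 1054 peaks of similar length held a GGAC form. The peak at 28672032 to 28672831 (fold enrichment 8.72, log10 p -8.73) was labelled 3′ UTR in the list, but on the longest coding transcript it covered parts of exons 11 and 12, codons 344 to 397. Only 162 of its 800 nt were in protein-coding isoforms. The peak at 28641228 to 28658622 (7.59, log10 p -1.63) began on the first base of the gene and spanned 17395 nt, of which 202 nt were exons of protein-coding isoforms in the 5′ UTR.

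Tsc2 (ENSMUSG00000002496, chromosome 17, minus strand), the tuberin subunit that acts on Rheb, had no peak, in a longest coding transcript of 6266 nt with 134 DRACH matches. Mlst8 (ENSMUSG00000024142, chromosome 17, minus strand), a subunit shared by both complexes, had no peak either, in a transcript of 3855 nt with 91 matches. That is 21.4 and 23.6 matches per kb of transcript, against at most 23.2 (Tsc1) in the 8 genes with a peak. The nearest peak of another gene lay 49086 nt from Tsc2 (Zfp598) and 2814 nt from Mlst8 (Pgp). The expression of these genes was not analysed here, so an unmodified RNA and a scarce RNA cannot be told apart.

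Rheb (ENSMUSG00000028945, chromosome 5, minus strand), the GTPase that activates mTORC1, had 2 peaks of different kinds. The peak at 24803272 to 24807052 covered the stop codon, with 147 nt of coding sequence (codons 137 to 184) and 392 nt of 3′ UTR, in exons 7 and 8 of 8. Its fold enrichment was 2.57 and its log10 p of -13.5 was the third most significant of the 17 peaks. It held 9 DRACH matches, and the A of its GGACA lies 24 nt past the stop codon. The peak at 24811416 to 24811625 was enriched 9.48-fold, but its log10 p was -1.69. It lay in intron 3 of the coding transcript, in an exon of a retained-intron isoform, and 51.4% of its bases are in lower case in the RefSeq genome. A further peak (24817789 to 24840111, fold enrichment 1.69, log10 p -2.90) was assigned to Gm25363, a small RNA gene inside Rheb, but labelled with exon 2 of the coding Rheb transcript. It overlapped 151 nt of Rheb exons, 43 nt of them in the longest coding transcript, and 245 nt of Gm25363, and was not counted for Rheb.

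Eif4ebp1 (ENSMUSG00000031490, chromosome 8, plus strand) encodes 4E-BP1, a translation repressor that mTORC1 phosphorylates and inactivates. It was the gene with a peak at each end of its coding sequence. The peak at 27260329 to 27260507 (fold enrichment 3.02, log10 p -7.61) began on the first base of the gene and held the whole 5′ UTR of 80 nt and codons 1 to 33. The A of the GGACT shown above for this peak lies in the coding sequence, at -259 nt from the last base of the stop codon. The printed bases run past the end of the peak. The GC content of the peak, 74.9%, was above that of 97.9% of peaks in the list. It was the only 1 of the 14 placed peaks to cover a start codon, against 14.9% of placed peaks in the list. The peak at 27273406 to 27275547 (1.68, log10 p -7.04) covered codons 76 to 117 and the stop codon and reached 436 nt into the 3′ UTR. It held 8 DRACH matches, of which 3 were GGAC forms, and the A of the GGACT shown above lies 263 nt past the stop codon.

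The region of a peak was read from the middle of its part on exons of the longest coding transcript, without exons of other isoforms. Of 14 peaks that could be placed so, 8 lay in the 3′ UTR (57.1%, against 56.5% of placed peaks in the list). Another 5 lay in the coding sequence (35.7%, against 33.5%) and 1 in the 5′ UTR (7.14%, against 9.94%). The stop codon was covered in Deptor, Rheb and Eif4ebp1, 3 of 14, against 20.4%. The same 3 peaks were the ones centred within 200 nt of the stop codon, against 22.3%. The spread over regions was close to that of the list, but the genes differed, since Mtor, Rictor and Akt1s1 had their only peak in the distal 3′ UTR and Tsc1 had none there. The fold enrichment of the 5 peaks centred in the coding sequence had a median of 8.72, against 2.53 in such peaks of the list. Deptor and Tsc1 supplied 4 of the 5. Of the span of these 4, exons of protein-coding isoforms made up 1.96% and 1.58% in Deptor and 24.0% and 20.2% in Tsc1. The median is therefore not one of coding sequence alone. The 8 peaks in the 3′ UTR had a median of 2.80, against 2.02. Over all 17 peaks the median was 4.74, against 2.66 in the list and 2.37 in its protein-coding genes. Strong peaks made up 8 of the 17, against 34.6% of the list and 29.5% of the peaks of its protein-coding genes. These are values of peaks and not of genes, since Deptor supplied 6 of the 17 and Tsc1 3, each with 3 strong ones. The median was 3.48 with only peaks of a p under 0.001, and 4.33 with only peaks on exons of protein-coding isoforms.

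**Figure D3:**
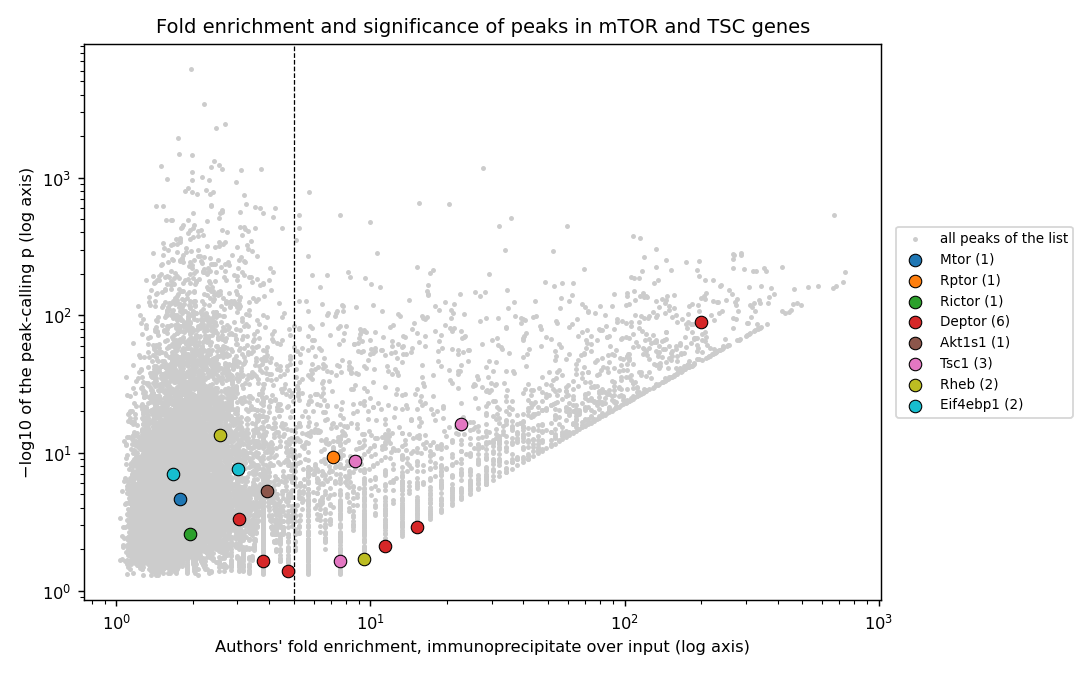
Fold enrichment against −log10 of the peak-calling p, both on log axes, for all peaks (grey) and for the peaks of the mTOR and TSC genes (colours, with the number of peaks per gene). The dashed line marks a fold enrichment of 5. To its right, 3 peaks (1 of Rheb and 2 of Deptor) sit on the lower edge of the cloud, while the peak of Tsc1 at 22.8 sits well above it.

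Fold enrichment and significance ranked these peaks differently, and the strong peaks fell into 2 kinds. The peaks of Rptor (7.16), Deptor (199) and Tsc1 (22.8 and 8.72) had a pair of fold enrichment and log10 p that no other peak in the list shared. The other 4 strong peaks had pairs that many peaks shared: 845 peaks had exactly the values of the Rheb peak (9.48 and -1.69), 532 those of the Deptor peak of 11.4, 226 those of the Deptor peak of 15.2 and 77 those of the Tsc1 peak of 7.59. A pair held by at least 50 peaks, a limit chosen after the values were seen, was found for 49.8% of strong peaks in the list. Among all peaks the share was 20%, against 5 of these 17. Among the 1024 peaks with a fold enrichment of 9.48 none was less significant than that of Rheb, and the same held for the 648 peaks at 11.4 and the 282 at 15.2. Of the 134 peaks at 22.8, in contrast, 131 were less significant than that of Tsc1. A p under 0.001 was reached by 10 of the 17 peaks, against 61.5% of the list, and by none of the 4 strong peaks with shared pairs. With that limit Deptor, Tsc1 and Rptor were the genes with a strong peak, 3 of 8, against 25.7% of protein-coding genes with a peak.

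Of 57 further pathway genes 40 had a peak (70.2%, against 46.3% of all annotated protein-coding genes, expressed in these cells or not). The bearing of expression on this difference was not tested. A strong peak was found in 16 of these 40, against 43.4% of protein-coding genes with a peak. Their 75 peaks had a median fold enrichment of 2.26, near the 2.37 of protein-coding genes. It was below the 4.74 of the 17 mTOR and TSC peaks, of which Deptor supplied 6 and Tsc1 3. In 13 of the 40 a strong peak touched an exon of a protein-coding isoform, against 37.3%.

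Among mTORC2 and assembly partners 5 of 6 genes had a peak and 2 a strong one. The highest fold enrichment was 15.2 (log10 p -2.91) at Mapkap1, which encodes the mTORC2 subunit SIN1, and this peak touched no exon of the gene. The same pair of values was that of the Deptor peak over codons 278 to 409. The most significant was at Tti2, a chaperone partner for mTOR-like kinases (fold enrichment 2.67, log10 p -14.5). Tti1 had no peak.

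Among the inputs to TSC and Rheb 6 of 10 genes had a peak and 3 a strong one. The highest value, 11.4 with a log10 p of -2.09, was shared by Prkaa1 and Prkab2, subunits of the energy sensor AMPK, and by the Deptor peak at 55252736. The most significant peak was at Ddit4, which encodes the stress-induced mTORC1 inhibitor REDD1 (5.83, log10 p -40.0), in the 3′ UTR. Tbc1d7, the remaining TSC subunit, had no peak, and neither had Rhebl1, Ddit4l and Prkaa2.

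Rag GTPases and the Ragulator bring mTORC1 to the lysosome, and 8 of 10 of these genes had a peak, 3 of them a strong one. Lamtor2, a Ragulator subunit, had both the highest fold enrichment and the most significant peak of the group (16.9, log10 p -143), in the 3′ UTR on exons of a protein-coding isoform. Rragb and Slc38a9 had no peak.

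Of the GATOR and KICSTOR genes and amino acid sensors 10 of 17 had a peak and 5 a strong one. Wdr59, a GATOR2 subunit, had the highest fold enrichment and the most significant peak (17.1, log10 p -9.43), in the coding sequence. Fnip1, Kptn, Nprl2, Nprl3, Sec13, Seh1l and Wdr24 had no peak, and the last 3 are GATOR2 subunits as well.

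Among targets of the pathway 11 of 14 genes had a peak and 3 a strong one. The highest fold enrichment was 37.9 (log10 p -9.39) at Lpin1, a phosphatidate phosphatase, in a peak on no exon of a protein-coding isoform. Rps6, the ribosomal protein that S6 kinases phosphorylate, had the most significant peak (2.09, log10 p -270). Grb10, Srebf1 and Ulk1 had no peak.

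**Figure D4:**
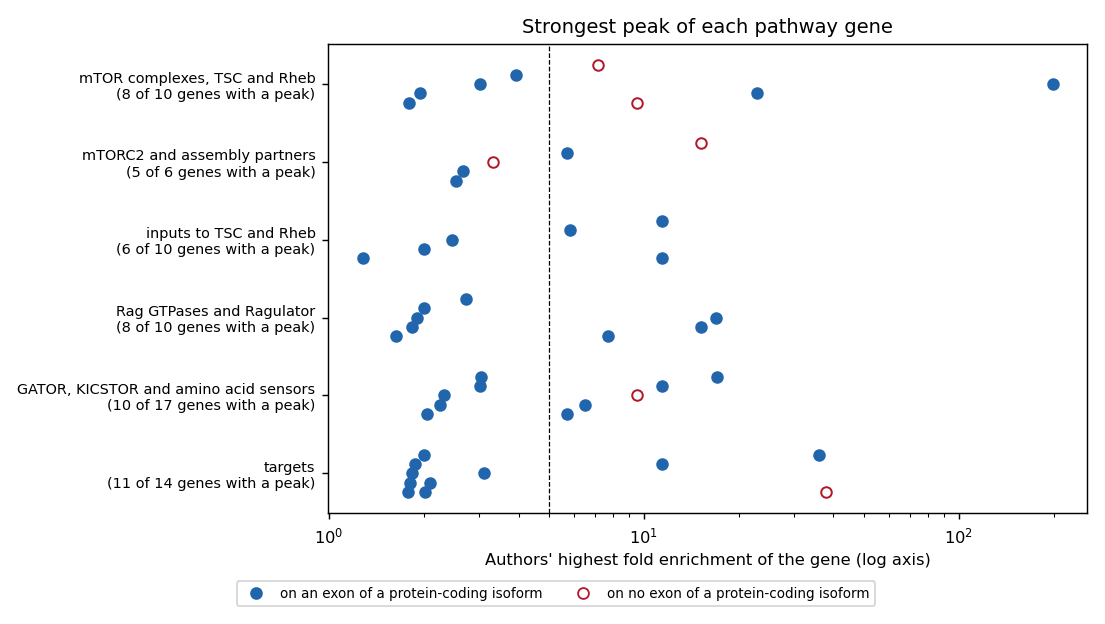
Highest fold enrichment of each pathway gene with a peak, on a log axis, by role group. Filled points are peaks on an exon of a protein-coding isoform, open points are peaks on none, points are offset vertically to separate them, and the dashed line marks a fold enrichment of 5. Each group has genes on both sides of the line, and Deptor, at 199, lies farthest right.

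As a check of the cell type, each of 10 NK cell marker genes, such as Ncr1, Prf1 and Gzma, had a peak, with fold enrichments from 1.12 to 2.53 over 25 peaks. Markers of other spleen cells were not absent. All 4 macrophage markers had a peak (8 peaks, 1.12 to 2.75), as had the B cell markers Cd79a and Cd79b (2 peaks, 2.69 to 7.59) and 2 of 4 T cell markers (Cd3e and Cd3g, 5 peaks, 1.80 to 31.6). The macrophage peaks were not weak in significance. The best log10 p per gene ran from -35.3 (Adgre1) to -322 (Csf1r) in macrophage markers. In NK cell markers it ran from -25.0 (Ncr1) to -624 (Gzma), and only Gzma exceeded Csf1r. The Cd3g peak of 31.6 touched no exon of a protein-coding isoform. The values of the Cd3e peak, 30.3 with a log10 p of -6.35, were held by 69 peaks of the list. Ms4a1 of B cells and Cd4 and Cd8a of T cells had none. A peak shows that RNA from its position was present, but not from which strand or isoform, and it gives no expression level. The share of the mTOR and TSC peaks that came from such cells was not tested.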

How the data were processed

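MeRIP-seq peaks of splenic NK cells came from 2 m6A immunoprecipitates and 2 input libraries. Per the study's methods and labels, quality-trimmed reads were mapped to GRCm38 (HISAT2), exomePeak called the peaks, and ChIPseeker supplied gene and region labels. Strand is given neither for peaks nor for libraries. The deposited fold enrichment is a ratio of immunoprecipitate over input, and the deposited score is the unadjusted log10 of the peak-calling p. The deposited span runs from first to last base, introns included. The authors' list has 1 row per peak for all libraries, so the depth and the joining of replicates are unknown. Of 20751 rows, 24 repeated another and were dropped.

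Peaks were placed on GENCODE M21 gene models (GRCm38) by the centre of their exonic part on the longest coding transcript, with Python 3.11.15, pandas 2.3.3 and pysam 0.24.0. Sequences and lower-case marks came from RefSeq GRCm38.p6. Placement and motif counting were tested on simulated data. The planned test of immunoprecipitate against input was not run, since no column holds a value per sample. The genes and lists were chosen with earlier results of these data known. Within each role group the gene with the highest fold enrichment, that with the most significant peak and those without a peak are named, besides the 10 genes. The alternatives changed thresholds, gene assignment, transcript model, peak centre and motif. Of the cell type markers, 1 is not reported here.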

Additional observations from a re-analysis of the deposited data

How the results depend on the processing

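Of 25 alternative values for 8 results, 17 stayed within 1.5 times the value reported or within the 95% Wilson interval of a share, and 8 moved. At a p under 0.001 the peaks fell from 17 to 10. With 10 as the limit for a strong peak the genes with a strong peak fell from 4 to 2 (Deptor and Tsc1), and 10 of the wider pathway genes had such a peak, while 40 had any peak. With only peaks on exons of protein-coding isoforms 2 of the 4 genes kept a strong peak, because those of Rptor and Rheb lie outside such exons. The share of placed peaks centred near the stop codon, 21.4% within 200 nt, was 0 within 100 nt. The 3 centres lay at -182, 123 and 154 nt from the stop codon. With the centre of the genomic span the share was also 0, but only 8 peaks could be placed that way. GGAC forms are a subset of DRACH, so their density of 3.54 per kb is lower than 19.9.

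No paired analysis was possible because all libraries share 1 deposited value per peak, and the replicate numbers 1 and 2 of each group could not be used. Leaving out a replicate, another normalization and a filter on low counts were therefore not run. With the depth unknown, its bearing on the low fold enrichments of Mtor and Rictor, or on the 2 genes without a peak, could not be computed.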
